A study of Mus musculus with 40 samples.

Results

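The 8 genes Cox6b2, Sncg, Ephx1, Psrc1, Robo3, Ptp4a3, Inka2 and Serpine2, out of 43346 genes in the tables, were studied across mammary tumours of MMTV-Wnt1 mice. They were chosen because doxorubicin raised them clearly more in wild-type or p21-null tumours than in p53-null tumours, so their treatment responses below are a description of the values that chose them and carry no test. RNA-seq was done on 40 tumours in 6 groups, taken as 34 mice from the numbers in the tumours' titles. These were p53-null (Trp53 null) tumours given doxorubicin (6 tumours, 5 mice) or untreated (6 tumours, 4 mice), p21-null (Cdkn1a null) tumours given doxorubicin (10 tumours, 9 mice) or untreated (6 tumours, 5 mice), and tumours wild-type at both loci given doxorubicin (6 tumours, 5 mice) or untreated (6 tumours, 6 mice). All mice carried the MMTV-Wnt1 transgene, in which a mouse mammary tumour virus promoter drives the Wnt1 ligand in mammary epithelium, and the tumours arose spontaneously. Doxorubicin, which traps topoisomerase II on DNA and so causes double-strand breaks, was given into the peritoneum once a day (4 mg/kg) on 5 days in a row, with harvest 24 h after the last injection. No ages are stated in the labels. Wild-type libraries came from a total RNA kit and both kinds of null library from another kit, so where wild-type and null tumours are compared, kit and genotype cannot be told apart. Nuclear protein-coding genes held 79.6 to 86.3% of the deposited TPM in the 28 null tumours, against 7.72 to 10.7% in the 12 wild-type tumours. Levels are therefore given as TPM (a share of transcripts that allows for transcript length) rescaled so that nuclear protein-coding genes make up the whole, called rescaled TPM. The sequencing depth is unknown.

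The transcription factor p53 is stabilised when DNA is broken, binds paired half-sites and induces genes that arrest the cell cycle, trigger apoptosis or repair DNA. Cdkn1a, which encodes the cyclin-dependent kinase inhibitor p21, is its textbook target. In MMTV-Wnt1 mammary tumours, p53 is known for its part in the response to doxorubicin. The 8 genes studied here stand mostly outside the textbook lists of p53 targets and do unlike things, from epoxide hydrolysis to axon guidance. Some of them, such as Psrc1 and Ptp4a3 in mouse cells, are nonetheless known as p53-inducible genes.

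Promoter sequence was examined for the half-site that p53 binds, because the genes were chosen for a response that differed with Trp53 genotype. RefSeq windows on GRCm38.p6, which run from 250 bases before to 50 bases after a gene's start (300 bases), were found for 7 of the 8 genes, Ptp4a3 having no entry. Both strands were searched for the p53 half-site consensus. Exact half-sites stood in 2 of the 7, Sncg and Inka2, against 9.55% of 27025 genes with such windows. These windows are shown 5′ to 3′ on the gene's strand, with the half-site in capitals, together with the known pair of half-sites from the Cdkn1a promoter for comparison. In the Cdkn1a run the lower-case letter is the only one off the consensus. That pair starts 51 bases before the upstream RefSeq start of Cdkn1a, and the window of its other start held no half-site.
Sncg, GRCm38.p6 chr14:34374620-34374919, minus strand: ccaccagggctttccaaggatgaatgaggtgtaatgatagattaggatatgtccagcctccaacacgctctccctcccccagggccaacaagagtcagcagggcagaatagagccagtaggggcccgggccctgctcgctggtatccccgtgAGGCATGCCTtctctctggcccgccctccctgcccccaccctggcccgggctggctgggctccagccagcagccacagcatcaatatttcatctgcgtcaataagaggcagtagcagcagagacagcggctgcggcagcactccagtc
Inka2, GRCm38.p6 chr3:105705208-105705507, plus strand: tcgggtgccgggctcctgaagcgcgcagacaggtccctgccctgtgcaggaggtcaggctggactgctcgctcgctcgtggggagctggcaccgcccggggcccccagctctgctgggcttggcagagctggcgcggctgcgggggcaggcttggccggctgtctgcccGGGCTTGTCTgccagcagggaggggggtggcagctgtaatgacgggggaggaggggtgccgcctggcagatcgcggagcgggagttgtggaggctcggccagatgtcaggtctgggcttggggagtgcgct
Cdkn1a, GRCm38.p6 chr17:29090928-29090947, plus strand: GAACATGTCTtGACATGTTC
The half-site of Sncg starts 98 bases before its RefSeq start and, since the gene as annotated in GENCODE begins further out, lies within the gene coordinates given below. That of Inka2 starts 81 bases before the second of its RefSeq starts. With 1 mismatch allowed outside the CNNG core, 4 of the 7 genes matched (Ephx1, Inka2, Robo3 and Sncg), against 54.2% of all genes with windows. No exact pair of half-sites up to 13 bases apart was found in the 7 windows, against 0.074% of all genes, and with 1 mismatch in each half-site the count was 1 (Inka2), against 3.09%. The looser pattern CNNGNNNNNNCNNG, a pair of half-site cores without spacer, was in all 7 genes and in 72.4% of all genes. A match is a stretch of letters, not a binding site, and these windows leave out introns and distal elements.

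Before the individual genes, the genes under the labels were examined. Trp53 averaged 63.6 rescaled TPM in treated and 73.8 in untreated p53-null mice, and Cdkn1a averaged 276 in treated and 59.8 in untreated p21-null mice. Transcripts of both genes were thus counted in the tumours labelled null for them. How much of either gene the null alleles delete is not stated in the labels, and these gene-level values therefore do not check the genotypes. Wnt1 was between 41.4 and 259 rescaled TPM in every mouse of the 6 groups. Luminal markers (Krt8, Krt18, Krt19, Epcam, Cldn3 and Cldn4) summed to 2619 to 6372 rescaled TPM in every mouse and basal markers (Krt5, Krt14, Krt17, Acta2, Trp63 and Oxtr) to 1732 to 5479, which are present in the labelled mammary tumour tissue. Tables were distinct, with 0 identical pairs.

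In p21-null and wild-type tumours all 8 genes stood higher after doxorubicin, by 1.94- to 15.1-fold in p21-null and 2.17- to 9.82-fold in wild-type tumours on the scale of log2(rescaled TPM + 1), which understates the change of low genes. In p53-null tumours 7 of the 8 fitted values lay below 0. The fit was limma across 14928 genes and 34 mice, with genes called at a Benjamini-Hochberg adjusted p of 0.05. Called higher were 0 of 8 genes in p53-null tumours (1.17% of all genes tested), 8 in p21-null tumours (5.00%) and 8 in wild-type tumours (3.73%). Cox6b2 was called lower in p53-null tumours, where 0.456% of all genes were, a call lost when only the 2 p53-null groups were fitted. None was called lower in p21-null (4.03% of all genes) or wild-type tumours (1.33%). At an unadjusted p of 0.05, limma put 0 of the 8 higher and 3 lower in p53-null tumours, against 1258 higher and 826 lower of the 14928 genes tested. Treated mice lay above untreated mice without overlap for 0 genes in p53-null tumours (2.32% of genes tested), 7 in p21-null (3.04%) and 8 in wild-type tumours (4.52%). Treated mice lay below without overlap for none of the 8, against 1.11% of genes tested in p53-null, 1.17% in p21-null and 1.87% in wild-type tumours. The median log2 fold change of the 8 was -0.29 in p53-null, 2.10 in p21-null and 1.99 in wild-type tumours, against 0.05, -0.09 and 0.04 over all genes tested. The response in p21-null tumours exceeded that in p53-null tumours by 1.75 (Psrc1 and Ephx1) to 4.89 (Sncg) log2 units, a difference called for 8 of 8 genes (0.690% of all genes). The response in wild-type tumours exceeded it by 1.502 (Robo3) to 4.27 (Cox6b2), a difference called for 7 of 8 genes, all but Robo3 (0.744% of all genes). Between p21-null and wild-type responses the differences ran from -0.43 to 1.08 (p21-null minus wild-type), with 0 of 8 called (0.0804% of all genes). The choice used no numerical threshold. With TPM as deposited, without rescaling, the wild-type log2 fold change was 1.79 for Sncg, 1.23 for Inka2 and 0.36 for Robo3, which was then not called. Since these contrasts chose the genes, nothing is read from those counts. In these bulk tumours, fewer cells of a type and less RNA per cell cannot be told apart.

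**Figure D1:**
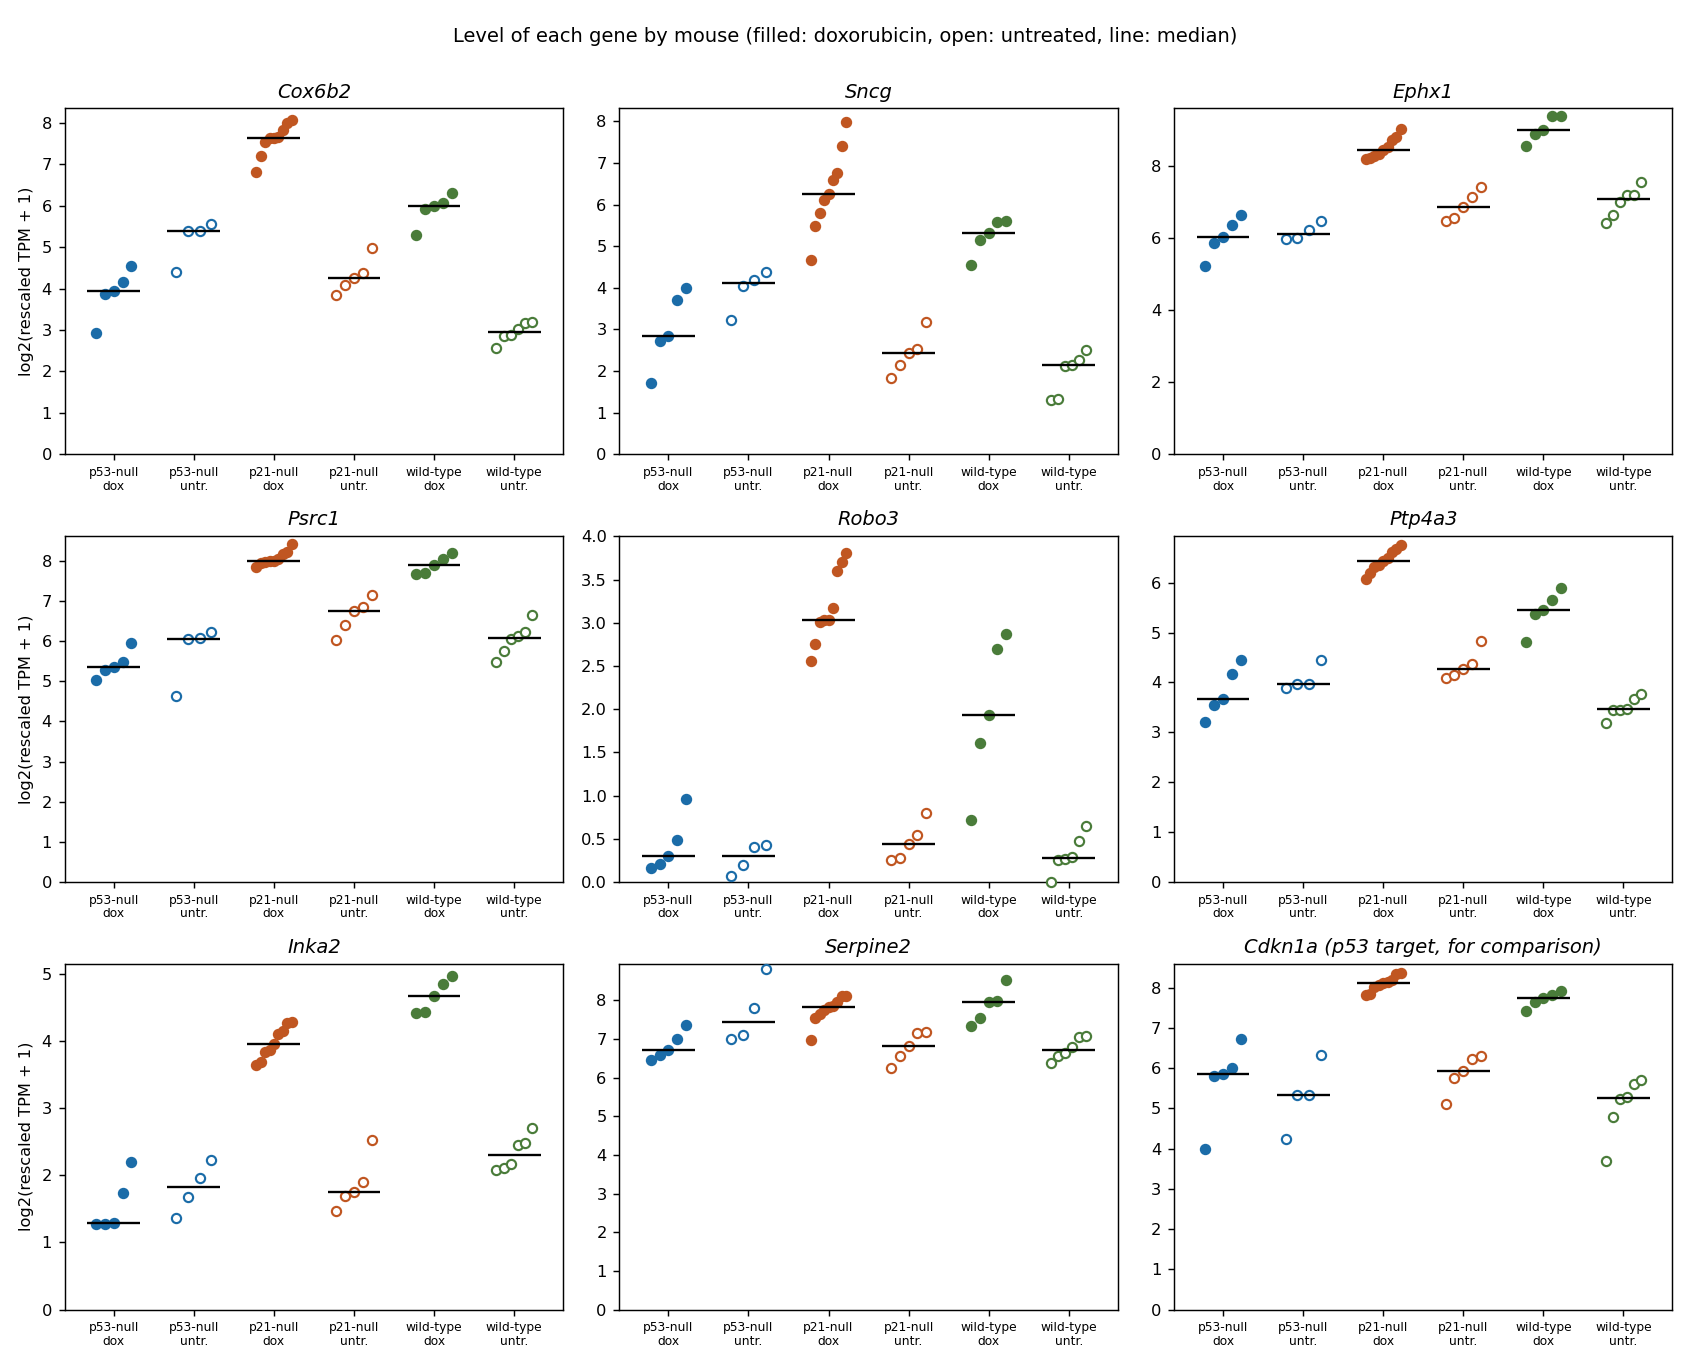
Level of each of the 8 genes and of Cdkn1a in every mouse, as log2(rescaled TPM + 1) on the vertical axis, for 6 groups on the horizontal axis; filled points are doxorubicin-treated mice, open points untreated mice, and lines medians. Treated p21-null and wild-type points stand above their untreated groups in every panel except for overlap of Serpine2 in p21-null tumours, while the p53-null groups overlap in all panels.

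Cox6b2 and Ephx1 encode enzymes or enzyme subunits. Cox6b2 (ENSMUSG00000051811, chromosome 7, 4751792 to 4753094, minus strand, GRCm38) encodes the isoform of cytochrome c oxidase subunit 6B that is best known from testis. In p53-null tumours Cox6b2 stood at 6.60, 13.7, 14.3, 16.8 and 22.5 rescaled TPM in the 5 treated mice, against 20.1, 40.9, 41.0 and 46.6 in the 4 untreated mice. Treated p53-null mice were the lower group, with an overlap only between the highest treated and the lowest untreated mouse. In p21-null tumours it ran from 111 to 269 (median 197) in 9 treated mice, against 13.5, 16.1, 18.0, 19.9 and 30.7 in 5 untreated mice. In wild-type tumours it stood at 37.9, 60.0, 62.5, 66.1 and 78.5 in the 5 treated mice, against 4.93 to 8.18 (median 6.75) in the 6 untreated mice. The treated groups stood far above the untreated ones without overlap in both. The log2 fold changes (± SE) were -1.30 ± 0.28 in p53-null, 3.28 ± 0.23 in p21-null and 2.97 ± 0.25 in wild-type tumours. In order of medians, treated p21-null tumours were highest, without overlap with treated wild-type tumours, and untreated wild-type tumours were lowest. Treated wild-type and untreated p53-null tumours overlapped, as did untreated p53-null and untreated p21-null tumours, untreated p21-null and treated p53-null tumours, and treated p53-null and untreated wild-type tumours.

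Ephx1 (ENSMUSG00000038776, chromosome 1, 180976210 to 181020904, minus strand) encodes microsomal epoxide hydrolase, which opens reactive epoxides of drugs and other foreign compounds. Ephx1 measured 36.6, 56.8, 64.3, 80.6 and 97.8 rescaled TPM in the 5 treated p53-null mice, against 61.0, 62.5, 73.5 and 87.1 in the 4 untreated ones. The p53-null groups overlapped over most of their range. The 9 treated p21-null mice spanned 288 to 522 (median 348), against 87.7, 93.1, 116, 139 and 168 in the 5 untreated ones. The 5 treated wild-type mice had 373, 468, 509.6, 663 and 668, against 83.6 to 187 (median 135) in the 6 untreated ones. Every treated mouse of these genotypes was above every untreated mouse. On the log2 scale the fold changes were -0.14 ± 0.24 in p53-null, 1.62 ± 0.20 in p21-null and 2.05 ± 0.22 in wild-type tumours. Ephx1 was the most abundant of the 8 genes in treated tumours of both genotypes, and treated wild-type and treated p21-null tumours overlapped at the top of the order, followed by untreated wild-type and untreated p21-null tumours, which also overlapped. Both p53-null groups overlapped at the bottom, and untreated p53-null mice lay narrowly below untreated p21-null mice, a gap not held between single tumours. Ephx1 overlaps the pseudogene Gm36961 on the same strand, so reads there could be split between them.

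Sncg and Robo3 are best known from neurons. Sncg (ENSMUSG00000023064, chromosome 14, 34370274 to 34374789, minus strand) encodes γ-synuclein, a small cytosolic protein of peripheral neurons and adipocytes that has also been described in breast carcinoma. The 5 treated p53-null mice had 2.29, 5.58, 6.16, 12.04 and 15.0 rescaled TPM of Sncg, against 8.42, 15.6, 17.3 and 19.8 in the 4 untreated p53-null mice. The p53-null groups overlapped, with the treated mice mostly lower. Treated p21-null mice (n = 9) ranged from 24.4 to 252 (median 75.8), against 2.53, 3.42, 4.37, 4.82 and 7.99 in the 5 untreated p21-null mice. Treated wild-type mice (n = 5) had 22.3, 34.2, 38.7, 47.3 and 47.7, against 1.45 to 4.66 (median 3.39) in the 6 untreated wild-type mice. Treated mice were above untreated mice without overlap in both, and the treated p21-null mice were far apart from each other, with a coefficient of variation of 72.0%, the largest of the 8 genes in that group. The log2 fold changes were -0.97 ± 0.47 in p53-null, 3.92 ± 0.39 in p21-null and 3.30 ± 0.42 in wild-type tumours, and the response in p21-null tumours was the largest of the 8 genes in any genotype. By median the order ran from treated p21-null and treated wild-type tumours, which overlapped, to untreated p53-null tumours, which overlapped treated p53-null tumours. Over mice, untreated p53-null tumours stood apart from treated wild-type tumours, but the lowest treated wild-type mouse, at 22.3, lay below 1 single untreated p53-null tumour at 26.2. Treated p53-null, untreated p21-null and untreated wild-type tumours followed, each overlapping the next. The window of Sncg shown above holds an exact half-site, and that of Cox6b2, the next by response in p21-null tumours, held none.

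Robo3 (ENSMUSG00000032128, chromosome 9, 37415669 to 37433246, minus strand) encodes a receptor of the Roundabout family that steers commissural axons across the midline of the embryonic nervous system. In p53-null tumours Robo3 stood at 0.116, 0.151, 0.230, 0.398 and 0.941 rescaled TPM in the 5 treated mice, against 0.0474, 0.148, 0.326 and 0.348 in the 4 untreated mice. In p21-null tumours it ran from 4.89 to 13.1 (median 7.20) in 9 treated mice, against 0.188, 0.212, 0.356, 0.460 and 0.734 in 5 untreated mice. In wild-type tumours it stood at 0.647, 2.05, 2.80, 5.50 and 6.32 in the 5 treated mice, against 0, 0.190, 0.203, 0.2203, 0.387 and 0.560 in the 6 untreated mice. Treated p21-null mice were far above all other mice except treated wild-type mice, and the lowest treated wild-type mouse lay just above the highest untreated one. Robo3 passed the filter on low values only through its treated p21-null and wild-type groups. Log2 fold changes were 0.14 ± 0.29 in p53-null, 2.72 ± 0.24 in p21-null and 1.65 ± 0.26 in wild-type tumours. The wild-type values rest on deposited TPM of 0.05 to 0.63 in treated and 0 to 0.05 in untreated tumours, in tables with 2 decimals, and 1 untreated wild-type tumour was listed at 0. Robo3 had the widest gap between the p21-null and wild-type responses among the 8 genes, at 1.08 ± 0.36 log2 units (p21-null minus wild-type), and the gap spans the change of kit. With pseudocounts of 0.1 and 5 in place of 1, its log2 fold change in p21-null tumours was 4.18 and 1.295. By median the 4 groups other than treated p21-null and treated wild-type tumours lay between 0.211 and 0.356 and overlapped with their neighbours in the order.

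Ptp4a3, Inka2 and Psrc1 encode regulators of signalling and of the cytoskeleton. Ptp4a3 (ENSMUSG00000059895, chromosome 15, 73723145 to 73758766, plus strand) encodes the phosphatase PRL-3, which binds the Cnnm mediators of magnesium transport and is studied for its part in metastasis. Ptp4a3 measured 8.20, 10.7, 11.8, 17.0 and 20.9 rescaled TPM in the 5 treated p53-null mice, against 13.8, 14.6, 14.6 and 20.8 in the 4 untreated ones. The p53-null groups overlapped, with treated mice on both sides of the untreated ones. The 9 treated p21-null mice spanned 66.3 to 107 (median 85.2), against 16.0, 16.7, 18.2, 19.7 and 27.6 in the 5 untreated ones. The 5 treated wild-type mice had 27.2, 40.5, 42.8, 49.0 and 58.5, against 8.15 to 12.7 (median 10.0) in the 6 untreated ones. Both treated groups stood above their untreated groups without overlap. The log2 fold changes were -0.26 ± 0.21 in p53-null, 2.09 ± 0.17 in p21-null and 1.94 ± 0.19 in wild-type tumours, and the p21-null response minus the wild-type response was 0.16 ± 0.25. Treated p21-null tumours were highest, without overlap with treated wild-type tumours, whose lowest mouse overlapped with untreated p21-null tumours. Untreated p21-null, untreated p53-null, treated p53-null and untreated wild-type tumours followed by median, each overlapping the next. An annotated small nuclear RNA, Gm22106, lies within Ptp4a3 on the same strand.

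Inka2 (ENSMUSG00000048458, chromosome 3, 105704599 to 105720842, plus strand) encodes an inhibitor of the kinase Pak4. The 5 treated p53-null mice had 1.43, 1.43, 1.45, 2.32 and 3.57 rescaled TPM of Inka2, against 1.58, 2.20, 2.91 and 3.66 in the 4 untreated p53-null mice. The p53-null groups covered nearly the same range. Treated p21-null mice (n = 9) ranged from 11.4 to 18.5 (median 14.5), against 1.77, 2.23, 2.37, 2.74 and 4.73 in the 5 untreated p21-null mice. Treated wild-type mice (n = 5) had 20.2, 20.5, 24.3, 27.8 and 30.2, against 3.24 to 5.49 (median 3.97) in the 6 untreated wild-type mice. Every treated mouse of both genotypes was above every untreated one. Its log2 fold changes were -0.25 ± 0.21 in p53-null, 2.11 ± 0.17 in p21-null and 2.33 ± 0.19 in wild-type tumours. Treated wild-type mice were highest and did not overlap with treated p21-null mice, although 1 single treated p21-null tumour at 20.7 lay above the lowest treated wild-type mouse. Treated p21-null mice in turn did not overlap with untreated wild-type tumours. The other groups overlapped with their neighbours in the order. The exact half-site of Inka2 shown above lies before the second annotated start, and the window of its first start held none.

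Psrc1 (ENSMUSG00000068744, chromosome 3, 108383839 to 108388231, plus strand) encodes a microtubule-associated protein of the mitotic spindle. In p53-null tumours Psrc1 stood at 32.0, 38.2, 40.2, 43.4 and 60.7 rescaled TPM in the 5 treated mice, against 23.6, 65.2, 66.4 and 74.0 in the 4 untreated mice. Treated p53-null mice lay within the range of the untreated ones, which included 1 mouse far below the other 3. In p21-null tumours it ran from 231 to 344 (median 256) in 9 treated mice, against 64.4, 83.5, 108, 114 and 141 in 5 untreated mice. In wild-type tumours it stood at 204, 206, 236, 265 and 292 in the 5 treated mice, against 43.4 to 99.3 (median 67.2) in the 6 untreated mice. The treated groups stood above the untreated ones without overlap. Fitted log2 fold changes were -0.32 ± 0.25 in p53-null, 1.43 ± 0.21 in p21-null and 1.86 ± 0.22 in wild-type tumours. Treated p21-null and treated wild-type mice overlapped at the top and stood apart from untreated p21-null mice, although among single tumours a treated wild-type one at 179.7 lay below an untreated p21-null one at 196. Untreated p21-null, untreated wild-type, untreated p53-null and treated p53-null tumours followed, each overlapping the next.

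Serpine2 (ENSMUSG00000026249, chromosome 1, 79794197 to 79861180, minus strand) encodes protease nexin-1, a secreted inhibitor of thrombin and plasminogen activators. Serpine2 measured 87.0, 94.6, 105, 127 and 164 rescaled TPM in the 5 treated p53-null mice, against 126, 135, 223 and 449 in the 4 untreated ones. Untreated p53-null mice were the higher group and spread widely, with 1 mouse well above the rest. The 9 treated p21-null mice spanned 125 to 276 (median 224), against 75.6, 92.6, 112, 141 and 144 in the 5 untreated ones. The 5 treated wild-type mice had 161, 186, 245, 251 and 364, against 82.5 to 133 (median 104) in the 6 untreated ones. In p21-null tumours 1 treated mouse lay among the untreated mice, a mouse averaged from tumours at 238 and 65.8, and in wild-type tumours the groups did not overlap. The log2 fold changes were -0.85 ± 0.28 in p53-null, 0.96 ± 0.24 in p21-null and 1.12 ± 0.26 in wild-type tumours, the smallest responses of the 8 genes in p21-null and wild-type tumours. In order of medians all 6 groups overlapped with their neighbours.

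**Figure D2:**
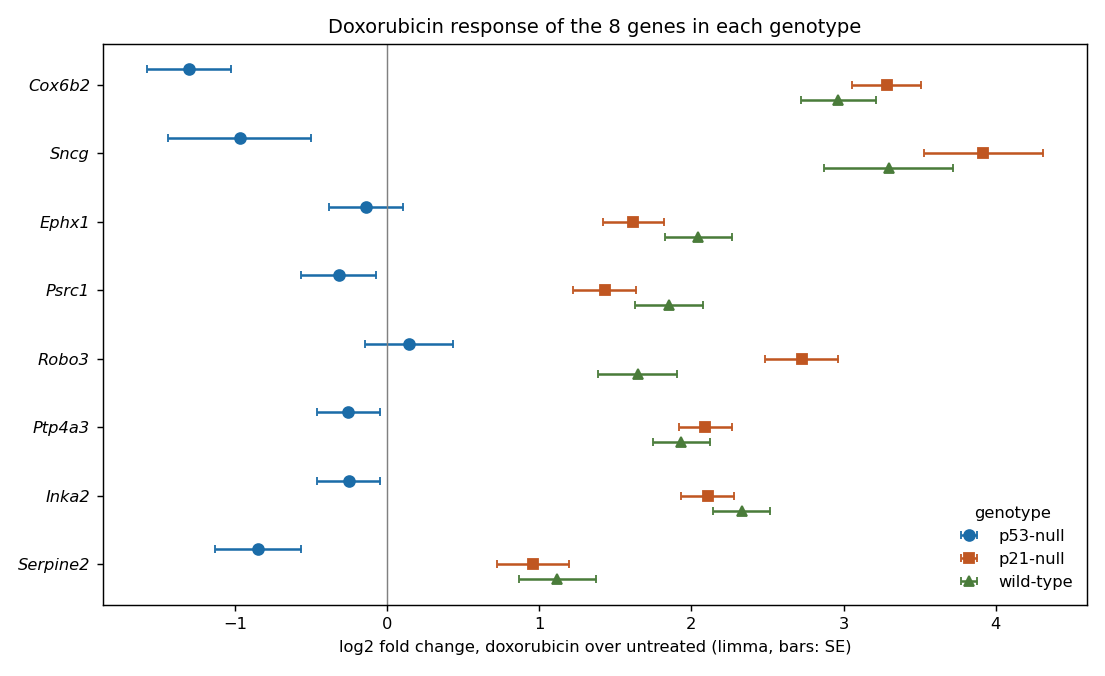
Log2 fold change of doxorubicin over untreated (horizontal axis, limma on log2(rescaled TPM + 1), bars SE) for each of the 8 genes (vertical axis) in p53-null (circles), p21-null (squares) and wild-type tumours (triangles). The p53-null values lie between -1.30 and 0.14 and those of the other genotypes between 0.96 and 3.92.

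Cdkn1a served as the point of comparison for these responses. The 5 treated p53-null mice had 14.9, 55.1, 57.2, 62.7 and 105 rescaled TPM of Cdkn1a, against 17.9, 39.2, 39.4 and 78.7 in the 4 untreated p53-null mice. Treated p21-null mice (n = 9) ranged from 224 to 329 (median 279), against 33.4, 53.2, 59.9, 74.3 and 78.4 in the 5 untreated p21-null mice. Treated wild-type mice (n = 5) had 172, 201, 213, 225 and 241, against 12.1 to 51.1 (median 37.2) in the 6 untreated wild-type mice. Treated p21-null and wild-type mice were above their untreated groups without overlap, and the p53-null groups overlapped. Cdkn1a rose by 2.24 ± 0.32 log2 units in p21-null tumours (limma, Benjamini-Hochberg adjusted p = 1.06e-05, higher in 9 of 9 treated mice than the untreated mean) and by 2.66 ± 0.35 in wild-type tumours (adjusted p = 4.61e-06, 5 of 5 mice). In p53-null tumours its log2 fold change was 0.37 ± 0.39 (adjusted p = 0.718). With the pseudocount of 1, Sncg and Cox6b2 had larger fitted responses than Cdkn1a in both p21-null and wild-type tumours. Robo3 had a larger one in p21-null tumours only, and the other genes had smaller ones. That scale understates the change of low genes. With a pseudocount of 0.1, Robo3 had 3.16 in wild-type and Inka2 2.45 in p21-null tumours, above the values of Cdkn1a at a pseudocount of 1.

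Among p53-null and p21-null tumours, whose libraries share a kit, more of the 8 genes separated by level in treated than in untreated tumours. In treated tumours 7 of the 8 genes lay lower in p53-null than in p21-null mice without overlap, against 1.37% of all genes tested, and none lay higher without overlap, against 1.78%. The same samples had entered the contrasts that chose the genes. The ratio of means, p53-null over p21-null, was 0.0433 for Robo3, 0.0743 for Cox6b2, 0.0831 for Sncg, 0.136 for Inka2, 0.159 for Psrc1 and for Ptp4a3, and 0.183 for Ephx1. Serpine2 overlapped, with means of 115 ± 30.9 (SD, n = 5) in p53-null and 219 ± 46.7 (n = 9) in p21-null tumours. In untreated tumours 6 genes overlapped between the 2 genotypes. Over mice, Sncg was higher in untreated p53-null tumours without overlap, at 15.3 ± 4.88 (SD, n = 4) against 4.63 ± 2.08 (n = 5) in untreated p21-null tumours, and 5.23% of all genes tested lay higher without overlap. Over mice, Ephx1 was lower without overlap, at 71.0 ± 12.1 (n = 4) in p53-null against 121 ± 33.3 (n = 5) in p21-null tumours, as were 2.06% of all genes. Neither gap held between single tumours, before tumours with the same number were averaged. A single untreated p53-null tumour had 2.97 for Sncg, within the untreated p21-null range, and another had 105 for Ephx1, above the 2 lowest untreated p21-null mice.

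The genes were set beside relatives of the same family, which the choice had not used. The 12 paralogs examined were Cox6b1, Sncb, Ephx2, Ephx3, Ephx4, Robo1, Robo2, Robo4, Ptp4a1, Ptp4a2, Inka1 and Serpine3, and 10 of them passed the filter on low values (Sncb and Serpine3 did not). Only 5 of the 8 genes thus had a tested paralog, and Sncg, Serpine2 and Psrc1 had none. None of the 10 was called in either direction in any genotype in limma, against 1.62% of all genes in p53-null, 9.02% in p21-null and 5.06% in wild-type tumours. At an unadjusted p of 0.05 none was higher, and 1 was lower in p53-null, 1 in p21-null and 0 in wild-type tumours. Higher and lower at that p, of the 14928 genes tested, were 1258 and 826 in p53-null, 1383 and 2317 in p21-null, and 1785 and 1005 in wild-type tumours.

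The constitutive isoform Cox6b1 had log2 fold changes of -0.15 ± 0.12 in p53-null, 0.13 ± 0.10 in p21-null and -0.08 ± 0.11 in wild-type tumours (limma, adjusted p of 0.425 or more). In level it averaged 1100 rescaled TPM in treated p21-null mice, where Cox6b2 averaged 199, and 1003 in untreated p21-null mice, where Cox6b2 averaged 19.6. The phosphatases Ptp4a1 and Ptp4a2 had values of 0.04 ± 0.09 and 0.04 ± 0.12 in p53-null, 0.05 ± 0.08 and 0.19 ± 0.10 in p21-null, and 0.03 ± 0.08 and 0.16 ± 0.11 in wild-type tumours. The receptors Robo1, Robo2 and Robo4, of which Robo4 is also the gene next to Robo3, lay between 0.07 and 0.30 in p53-null, -0.47 and -0.27 in p21-null, and -0.27 and 0.09 in wild-type tumours. Ephx3 had the highest values among the paralogs, 0.53 ± 0.36 in p21-null and 0.77 ± 0.40 in wild-type tumours, neither past the threshold (adjusted p = 0.386 and 0.301). Inka1 did not pass it either, with -0.59 ± 0.27 in p53-null, -0.28 ± 0.22 in p21-null and 0.06 ± 0.24 in wild-type tumours (adjusted p of 0.313 or more). The paralogs had a median log2 fold change of 0.05 in p53-null, -0.003 in p21-null and -0.03 in wild-type tumours, close to the medians over all genes. Whether a gene and its paralog differed in response was not tested.

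**Figure D3:**
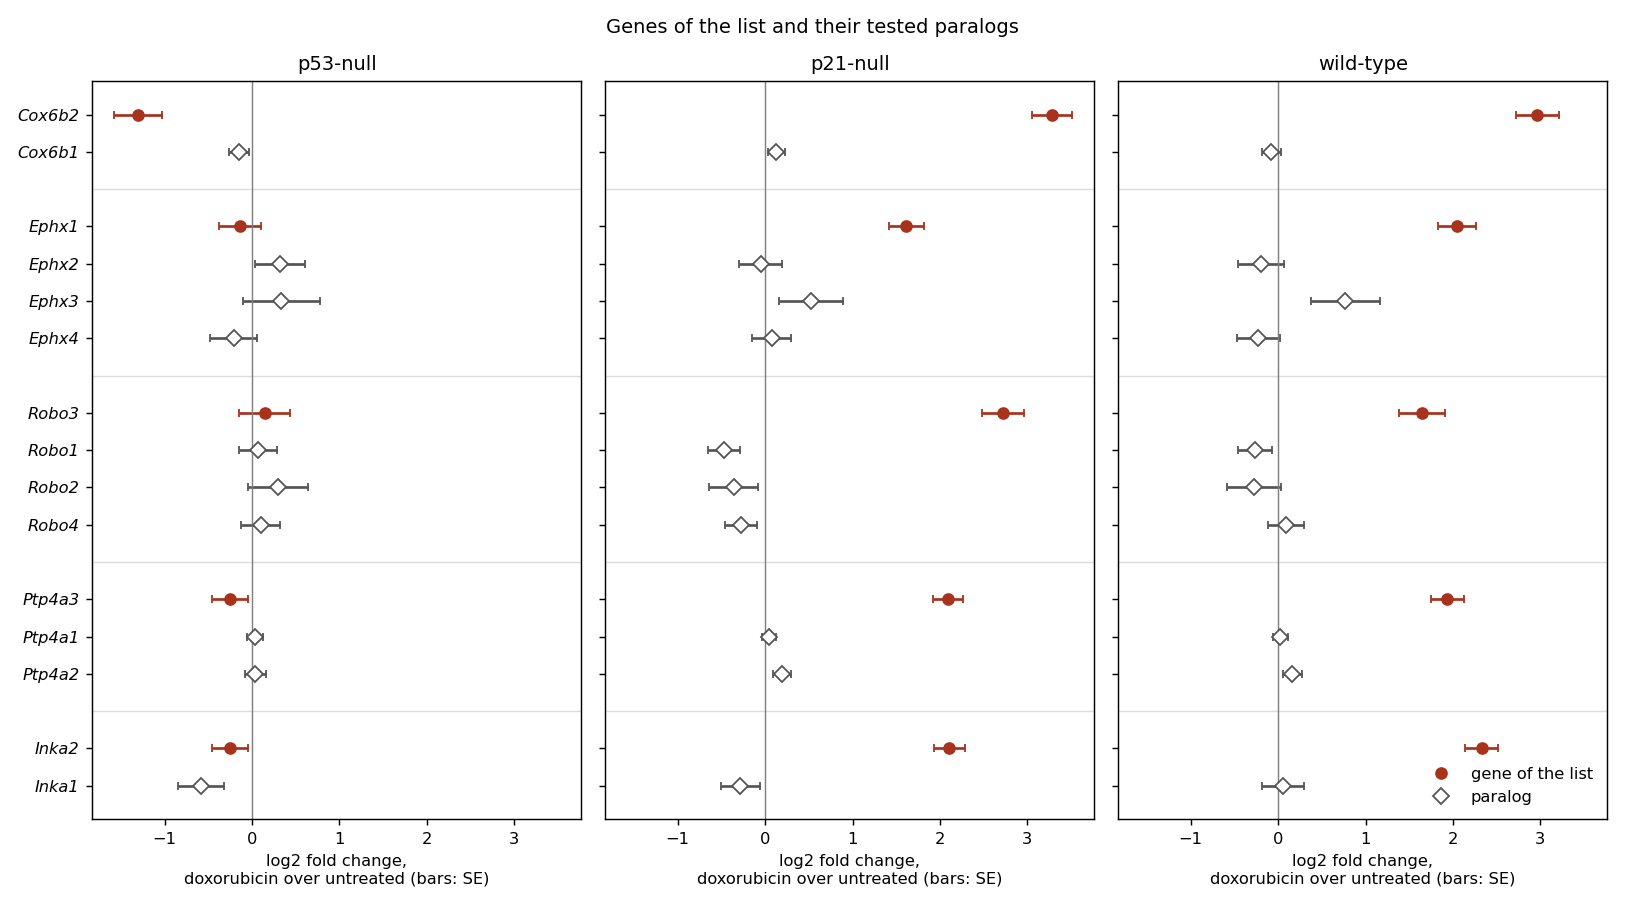
Log2 fold change of doxorubicin over untreated (horizontal axes, bars SE) in p53-null, p21-null and wild-type tumours for 5 of the genes (circles) and their tested paralogs (open diamonds), grouped by family on the vertical axis. In p21-null and wild-type tumours each gene of the list stands to the right of its paralogs. The genes of the list were chosen by their responses in these data and the paralogs were not, so this position is no test.

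Genes that lie next to the 8 on the chromosome were examined in the same fit. Of the 16 nearest protein-coding genes, 1 on each side, 10 passed the filter (Kmt5c, Fam25c, Mmrn2, Tmem63a, Celsr2, Robo4, Msantd2, Ddx20, Rap1a and Mrpl44), while Fam71e2, 9130409I23Rik, Mybphl, Gpr20, Mroh5 and Fam124b did not. None rose past the threshold in any genotype in limma. At an unadjusted p of 0.05, 1 was higher in p53-null, 0 in p21-null and 1 in wild-type tumours. Higher at that p were 1258, 1383 and 1785 of the 14928 genes tested. Kmt5c, a histone H4 lysine methyltransferase that lies 4278 bases from Cox6b2, fell by 0.50 ± 0.15 in p21-null tumours (adjusted p = 0.0264, lower in 9 of 9 treated mice), a call lost when only null tumours were fitted or without any of 4 single mice. Mmrn2, which lies 676 bases from Sncg on the opposite strand, had 0.15 ± 0.23 in p21-null and 0.50 ± 0.25 in wild-type tumours (adjusted p = 0.732 and 0.277). Tmem63a, 1098 bases from Ephx1, had 0.09 ± 0.13 and 0.34 ± 0.14 (adjusted p = 0.695 and 0.159). The medians of the 10 were -0.002 in p53-null, -0.15 in p21-null and 0.09 in wild-type tumours.

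Pathway lists gathered 69 genes that act with the 8, of which 64 were tested. Called higher and lower were 0 and 1 in p53-null, 2 and 1 in p21-null, and 3 and 1 in wild-type tumours, with medians of 0.05, 0.07 and -0.04. In either direction 1.62%, 9.02% and 5.06% of all genes were called. Whether the pathway genes differed from these shares was not tested, and their counts shifted with the fit, as given in the last section. Among partners of Robo3, 2 of 10 tested genes were called higher in both p21-null and wild-type tumours, against 5.00% and 3.73% of all genes. Slit1, a secreted ligand of the Roundabout family, rose by 1.02 ± 0.20 in p21-null tumours (adjusted p = 0.000775, 9 of 9 mice) and by 1.85 ± 0.22 in wild-type tumours (adjusted p = 5.05e-07, 5 of 5 mice), and its value in p53-null tumours was 0.03 ± 0.24. In level Slit1 was low, with means of 2.14 in treated and 0.545 in untreated p21-null mice and of 4.77 in treated and 0.535 in untreated wild-type mice. Srgap2, a GTPase-activating protein that acts downstream of Robo receptors, rose by 0.33 ± 0.09 in p21-null tumours (adjusted p = 0.0215, 9 of 9 mice) and by 0.38 ± 0.10 in wild-type tumours (adjusted p = 0.0219, 5 of 5 mice). With TPM as deposited, neither gene was called in wild-type tumours (0.46 for Slit1 and 0.28 for Srgap2). The calls of Srgap2 were also lost without any of 2 single mice in p21-null and 3 in wild-type tumours. Its call in p21-null tumours was lost too when only the 2 p21-null groups or only the null genotypes were fitted.

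Pak4, the kinase that Inka2 inhibits, was called in no genotype. Its log2 fold changes were 0.09 ± 0.155 in p53-null, -0.22 ± 0.13 in p21-null and -0.005 ± 0.14 in wild-type tumours. Of the 5 Pak kinases tested, only Pak1 passed the threshold. It fell by 0.41 ± 0.13 in p21-null tumours (adjusted p = 0.0345) and by 0.45 ± 0.14 in wild-type tumours (adjusted p = 0.0471), calls that were lost without any of 8 single mice in p21-null and 9 in wild-type tumours. Of 3 tested Cnnm genes, the partners of Ptp4a3, Cnnm2 rose in wild-type tumours, by 0.59 ± 0.16 (adjusted p = 0.0285, lost without any of 5 single mice), and none was called in p53-null or p21-null tumours. None of 14 cytochrome c oxidase subunits was called, and their medians were -0.12 in p53-null, 0.08 in p21-null and -0.05 in wild-type tumours. At an unadjusted p of 0.05, 3 subunits were lower in p53-null and 2 higher and 1 lower in p21-null tumours. None of 10 spindle microtubule regulators, such as Aurka, Aurkb and Plk1, and none of 9 tested extracellular proteases and receptors, such as Plau and Plat, was called in any genotype. At an unadjusted p of 0.05, limma put 5 spindle genes lower and 1 higher and 4 protease genes higher in wild-type tumours. Of 13 tested genes of xenobiotic metabolism, Gstp1, a glutathione transferase, fell in p53-null tumours by 0.52 ± 0.14 (adjusted p = 0.0418, lost without any of 6 single mice), and none was called in the others. At an unadjusted p of 0.05, the counts higher and lower over all 64 genes were 4 and 5 in p53-null, 4 and 7 in p21-null, and 12 and 7 in wild-type tumours. Among the 14928 genes tested, these counts were 1258 and 826 in p53-null, 1383 and 2317 in p21-null, and 1785 and 1005 in wild-type tumours.

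Of 30 textbook p53 targets other than the 8, most but not all were called higher after doxorubicin in p21-null and wild-type tumours. Limma called 0 in p53-null (5 higher and 2 lower at an unadjusted p of 0.05), 20 higher in p21-null (5.00% of all genes) and 21 higher in wild-type tumours (3.73%), and none lower, with medians of 0.13, 1.29 and 1.25. Mdm2, which encodes the ubiquitin ligase of p53, did not pass in either (limma, adjusted p = 0.0594 and 0.0746). In p21-null tumours its log2 fold change was 1.05 ± 0.36, with 9 of 9 treated mice above the untreated mean. In wild-type tumours it was 1.18 ± 0.39, with 5 of 5. The fit shares 1 estimate of spread across groups, and in untreated p53-null mice Mdm2 averaged 97.4 with an SD of 152.8. Sesn1, a stress-inducible sestrin, did not pass either, with log2 fold changes of -0.10 ± 0.15 and -0.03 ± 0.16. The list was drawn up with earlier results of these data known, so it is no independent evidence of direction. Bax, which permeabilises the mitochondrial outer membrane, rose by 1.33 ± 0.09 in p21-null (adjusted p = 1.12e-11) and 1.33 ± 0.10 in wild-type tumours (adjusted p = 1.63e-10). Gdf15, a secreted stress cytokine, rose by 2.83 ± 0.20 in p21-null (adjusted p = 1.12e-11) and by 1.94 ± 0.22 in wild-type tumours (adjusted p = 2.25e-07), where it was not called with TPM as deposited (0.505). Eda2r, the ectodysplasin A2 receptor, rose by 2.51 ± 0.22 and 2.97 ± 0.24 (adjusted p = 1.22e-09 and 4.14e-10), and Ccng1, an atypical cyclin, by 2.21 ± 0.16 and 2.09 ± 0.17 (adjusted p = 1.45e-11 and 4.99e-10). Their values in p53-null tumours were -0.26 ± 0.11, 0.14 ± 0.24, 0.16 ± 0.27 and 0.50 ± 0.19, with adjusted p of 0.222 or more.

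Whether the genes also varied together from mouse to mouse was examined on deviations from the group mean, which do not hold the group differences that chose the genes. None of the 8 tracked Cdkn1a past the threshold over 34 mice (two-sided permutation test within groups, Benjamini-Hochberg over 8 relations). Most of these mice were p53-null or p21-null, and in the latter Cdkn1a is itself the null gene. The test therefore cannot decide whether the genes track p53 activity. Pearson's r was largest for Cox6b2, at 0.30 (rho 0.239, p = 0.173 and 0.204, adjusted p = 0.692 and 0.806), and lowest for Inka2, at -0.34 (rho -0.102, p = 0.121 and 0.604, adjusted p = 0.692 and 0.806). Without the 2 mice farthest from the median of Cdkn1a these were 0.062 and -0.081, so both rest on those mice. Within the 23 mice of the null libraries they were 0.435 and -0.385 (adjusted p = 0.613 for both), and wild-type libraries alone were not tested. The r of the other 6 genes lay between -0.193 and 0.141. In treated mice alone (n = 19) the relation of Cox6b2 with Cdkn1a had r = 0.598, with a permutation p = 0.0557 before and 0.385 after adjustment.

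Pairs among the 8 genes ranged in r from -0.301 (Ephx1 with Serpine2) to 0.505 (Sncg with Ephx1), given here as a description over 34 mice whose values each come from that mouse's libraries. Most like Sncg in its deviations, among 12281 genes, were Clec3b, Pi16 and Dpep1 (r = 0.758, 0.734 and 0.721), and within the 11 wild-type mice these were 0.453, 0.245 and 0.208. Most like Ephx1 were H2-Ke6, Ctsf and Phf1 (0.816, 0.808 and 0.787), and most like Robo3 were Gdf15, Mdga1 and Gfer (0.688, 0.623 and 0.62). Gdf15 is among the p53 targets named above, and its r with Robo3 was 0.432 within the 23 null mice and 0.878 within the 11 wild-type mice. For Cox6b2 they were Dnajc19, Hist3h2ba and Rbfa (0.607, 0.587 and 0.572), and for Psrc1 Aaas, Limk2 and Sfxn2 (0.638, 0.582 and 0.582). Ptp4a3 was most like Fbxw4, Abhd12 and Amdhd2 (0.775, 0.725 and 0.721). Inka2 was most like Rev1, Mosmo and Etnk1 (0.775, 0.766 and 0.763), and Serpine2 most like Ptpn7, Tgfa and Slc18a2 (0.71, 0.706 and 0.695). Apart from Gdf15 with Robo3, none of these 24 genes is in the lists of the 8 genes or the p53 targets.

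Markers of other cells were set beside the 8 genes, since bulk tumours mix cell types. Of 6 macrophage markers (Cd68, Csf1r, Adgre1, C1qa, C1qb and Mrc1), 0 were called higher in p53-null, 4 in p21-null and 3 in wild-type tumours, while Csf1r and Mrc1 were called in no genotype. Over all genes tested, 1.17%, 5.00% and 3.73% were called higher. The 6 markers had log2 fold changes of 0.21 to 0.50 in p53-null, 0.44 to 1.28 in p21-null and 0.49 to 1.37 in wild-type tumours. Their sum was 327 to 1456 rescaled TPM in treated and 583 to 846 in untreated p53-null mice, 887 to 2051 in treated and 533 to 914 in untreated p21-null mice, and 833 to 1603 in treated and 526 to 762 in untreated wild-type mice. Of 5 tested T cell markers, 2 (Cd3d and Cd8a) rose in p21-null tumours and none was called in p53-null or wild-type tumours. Of 5 adipocyte markers, Adipoq rose in p21-null and Lep in wild-type tumours. None was called in p53-null tumours, where Adipoq had a log2 fold change of 1.77 ± 0.50 (limma, adjusted p = 0.0641). At an unadjusted p of 0.05, 4 of 5 adipocyte markers were higher in p53-null, 3 in p21-null and 5 in wild-type tumours. Higher at that p were 1258, 1383 and 1785 of the 14928 genes tested. Fibroblast, luminal, basal, endothelial and skeletal muscle markers gave no call in limma in any genotype. At an unadjusted p of 0.05 at most 1 gene of each list differed in each genotype. For basal markers this was 1 lower in p53-null, 1 higher in p21-null and 1 higher in wild-type tumours. Of 3 tested Schwann and nerve cell markers, Sox10 fell in p21-null tumours and none was called in the other genotypes. Of 4 red blood cell markers (Hbb-bs, Hba-a1, Hba-a2 and Alas2), 3 fell in p53-null, 4 in p21-null and 3 in wild-type tumours, against 0.456%, 4.03% and 1.33% of all genes. Their median sum was 73.5 rescaled TPM in treated and 506 in untreated p53-null mice, 22.1 in treated and 2513 in untreated p21-null mice, and 49.9 in treated and 1019 in untreated wild-type mice. No marker of any list was at 0 in every mouse of a group.

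Within groups, the deviations of Sncg went with those of several marker lists, with r of 0.632 (rho 0.415) for T cell, 0.541 (0.377) for adipocyte, 0.531 (0.35) for fibroblast, 0.504 (0.408) for endothelial and 0.489 (0.333) for macrophage markers over 34 mice. Ephx1 had r of 0.565 (rho 0.441) with T cell, 0.447 (0.343) with fibroblast and 0.432 (0.363) with macrophage markers. With Schwann and nerve cell markers r was -0.616 for Ephx1 and -0.555 for Sncg, but 0.483 for Serpine2. Ptp4a3 had 0.43 with endothelial markers. Cox6b2, Psrc1, Robo3 and Inka2 stayed between -0.32 and 0.29 with every list. These are descriptions with no test, and the part of these cells in the doxorubicin responses was not tested.

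**Figure D4:**
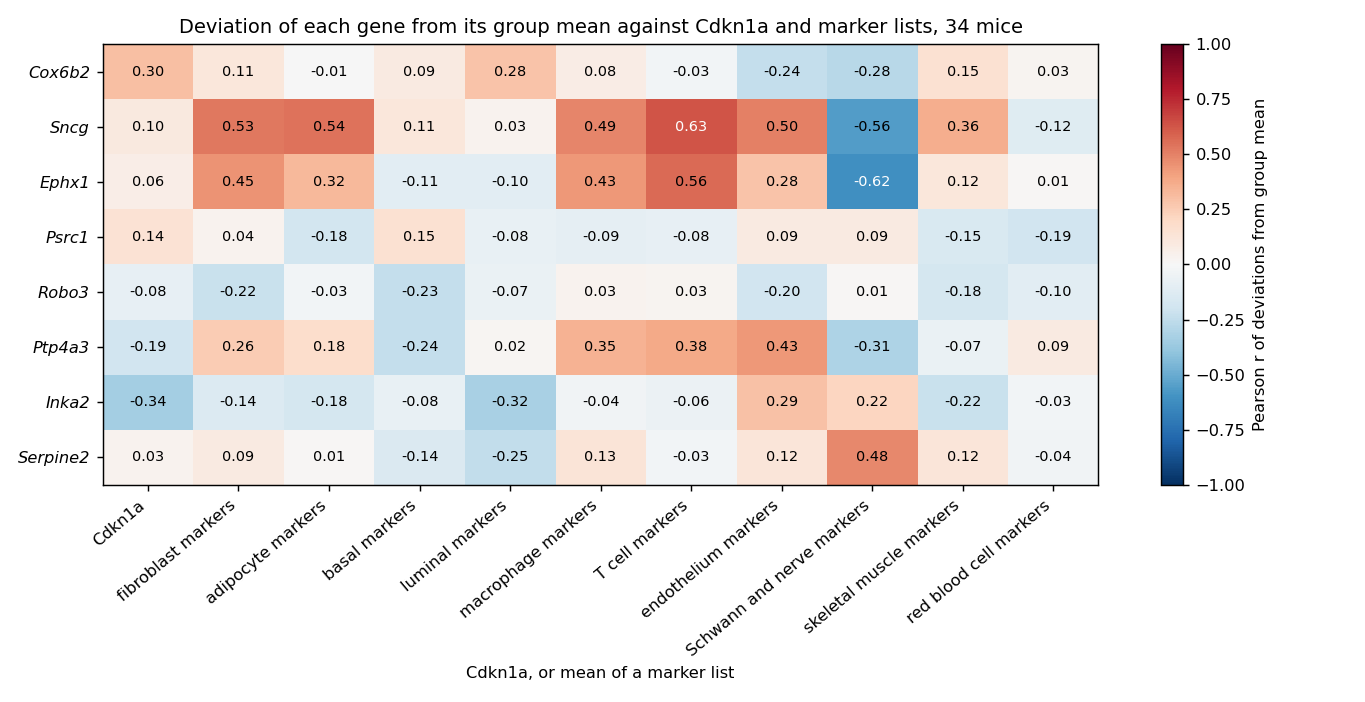
Pearson's r between the deviation of each of the 8 genes from its group mean (rows) and that of Cdkn1a or of the mean of a marker list (columns) over 34 mice, with the colour scale running from -1 to 1. Sncg and Ephx1 have the highest values, 0.632 and 0.565 with T cell markers, and Cdkn1a stays between -0.34 and 0.30.

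For 6 of the mice, as numbered in the titles, 2 tumours were sequenced, which shows how far a gene varied between tumours of 1 animal. The median size of the log2 difference between such tumours was 1.17 for Sncg (0.61 to 2.49) and 0.52 for Cox6b2 (0.26 to 1.53). It was 0.19 for Ptp4a3 (0.03 to 0.35) and 0.30 for Inka2, whose largest difference was 2.03. Tumours of 1 mouse thus differed by less for Ptp4a3 than its p21-null and wild-type responses, and for Sncg by as much as 2.49 log2 units. For Serpine2 the median difference was 0.49. Its largest, 1.84, exceeded its log2 fold changes of 0.96 in p21-null and 1.12 in wild-type tumours.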

How the data were processed

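RNA was extracted from snap-frozen tumour tissue and sequenced, per the labels' protocols, with the TruSeq Stranded Total RNA kit for wild-type tumours and the TruSeq RNA v2 kit for null tumours. The authors deposited 1 table of TPM per tumour, made with RSEM on mm10, per the submitters' processing notes, and the file names cite Ensembl release 79. No source used here states the RSEM version or the read depth, so counting intervals cannot be had. Deposited TPM hold 2 decimals. Of 43346 genes, 42462 matched GENCODE M21, which gave positions and gene types, and 884 did not. TPM were rescaled to 21461 nuclear protein-coding genes, since the total RNA libraries hold much other RNA, and log2(rescaled TPM + 1) was used. Tumours whose titles carry the same number were averaged on the log2 scale as 1 mouse each, for 34 mice in all. The labels do not say that numbers mark mice. All 6 groups were fitted together with limma 3.58.1 (trended, robust empirical Bayes, R 4.3.3, statmod 1.5.0, 28 residual degrees of freedom), on 14928 genes of at least 1 rescaled TPM in at least 4 mice, with Benjamini-Hochberg adjustment over all of them. The limma and correlation scripts were tested on simulated data. Correlations used 100000 permutations of mice within groups. Promoters are RefSeq windows of 300 bases.

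The 8 genes and the gene lists were chosen with earlier results of these data known. Named are the 8 genes, Trp53, Cdkn1a and Wnt1, all paralogs and neighbours, up to 4 called genes of each other list with the smallest adjusted p, and for each gene the 3 with the most similar deviations among 12281 genes. The alternatives tried were TPM as deposited, median-of-ratios scaling, pseudocounts of 0.1 and 5, no filter, all 40 tumours as separate samples, fits of only the groups compared or only the null genotypes, and leaving out each mouse. A few genes of the lists are not reported here and entered no count.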

Additional observations from a re-analysis of the deposited data

Results flagged for a closer look

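Among the 8 genes in 6 groups, 4 of 48 groups held a mouse that stood apart from the rest by Dixon's test, and chance gives about 1 in 20. In untreated p53-null tumours, Cox6b2 was 20.1 rescaled TPM in 1 mouse, against 40.9 to 46.6 in the other 3. Psrc1 was 23.6 in the same mouse, against 65.2 to 74.0 in the other 3. Without that mouse the log2 fold changes in p53-null tumours became -1.56 for Cox6b2 and -0.69 for Psrc1. Ptp4a3 was 20.8 in another untreated p53-null mouse, against 13.8 to 14.6 in the rest. Serpine2 was 125 in 1 treated p21-null mouse, against 185 to 276 in the other 8, and that mouse is the average of tumours at 238 and 65.8.

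The response to doxorubicin differed between genotypes for some genes outside the list, tested as a difference of log2 fold changes in limma, where 0.690% (p21-null minus p53-null) and 0.744% (wild-type minus p53-null) of all genes passed. For p21-null minus p53-null and then wild-type minus p53-null, Bax differed by 1.60 and 1.59 (adjusted p = 4.68e-08 or less), Bbc3 by 1.91 and 1.998 (1.43e-06 or less), Eda2r by 2.36 and 2.81 (9.56e-05 or less), Ccng1 by 1.71 and 1.59 (0.000432 or less), Gdf15 by 2.70 and 1.80 (0.00167 or less) and Ei24 by 1.02 and 0.996 (2.96e-05 or less). For Cdkn1a the wild-type response exceeded the p53-null response by 2.29 (adjusted p = 0.0227), and the p21-null difference of 1.87 did not pass (adjusted p = 0.087). For Slit1 the wild-type response exceeded the p53-null response by 1.82 (adjusted p = 0.00146), and the p21-null difference of 0.99 did not pass (adjusted p = 0.161). Each pair of differences shares the p53-null mice.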

How the results depend on the processing

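The calls of the 8 genes in p21-null and wild-type tumours held under each alternative, except that Robo3 in wild-type tumours had a log2 fold change of 0.36 and no call with TPM as deposited. On that scale the wild-type values of Cox6b2, Sncg, Inka2 and Ptp4a3 were 1.99, 1.79, 1.23 and 1.31, and all genes called numbered 180 in wild-type tumours, against 756 after rescaling. With pseudocounts of 0.1 and 5, Robo3 in p21-null tumours had 4.18 and 1.295. Fitting only the 2 p53-null groups called 1 gene in all, against 242, and 0 of the 8. Pathway genes higher in wild-type tumours numbered 0 with TPM as deposited and 8 with the 2 groups alone, and those lower 0 with TPM as deposited, a pseudocount of 0.1, no filter, 40 tumours or 2 groups. Pathway genes higher in p21-null tumours numbered 1 with 2 groups or null genotypes alone, and those lower 0 with median-of-ratios scaling, 40 tumours or null genotypes alone and 2 with 2 groups. Pathway genes lower in p53-null tumours numbered 0 with TPM as deposited, median-of-ratios scaling, no filter, 40 tumours, 2 groups or null genotypes alone. Neighbours higher in wild-type tumours numbered 1 with 2 groups, and lower in p21-null tumours 0 with null genotypes alone. Correlations with Cdkn1a changed sign for Sncg (-0.012), Robo3 (0.083) and Serpine2 (-0.121) without the 2 farthest mice, for Ephx1 with null genotypes (-0.079) or treated mice alone (-0.226), for Psrc1 with treated mice alone (-0.030) and for Serpine2 with 40 tumours (-0.022). Promoters with a half-site numbered 4 with 1 mismatch, against 2. Leaving out 1 mouse at a time gave 8 to 8 of the 8 genes higher in p21-null and in wild-type tumours, 0 to 0 higher and 1 to 1 lower in p53-null tumours, and 19 to 22 p53 targets higher in wild-type, 20 to 20 in p21-null and 0 to 2 in p53-null tumours. Paralogs lower ranged over 0 to 1 in p53-null and in p21-null tumours and 0 to 0 in wild-type tumours. Pathway genes higher ranged over 1 to 3 in wild-type, 1 to 2 in p21-null and 0 to 1 in p53-null tumours, and lower over 0 to 1 in wild-type and p53-null and 0 to 3 in p21-null tumours. Neighbours lower ranged over 0 to 1 in p21-null tumours. The calls of Pak1, Cnnm2, Srgap2, Gstp1 and Kmt5c were lost under some alternatives. The cause of these shifts was not tested. No paired analysis was possible because the groups share no replicate numbers. Depth is unknown, and low genes such as Robo3 rest on few hundredths of a deposited TPM in wild-type tumours.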
